A study of Homo sapiens with 2 samples.

Results

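The BCL2 family was followed in 10 genes, 6 that encode BH3-only proteins (BMF, BBC3, BCL2L11, BID, BAD and PMAIP1), 2 effectors (BOK and BAX) and 2 survival members (MCL1 and BCL2L1). They are 10 of the 19927 gene symbols in the count table and were picked by name, with their values in these libraries known, so the differences given for them are a description and carry no test. RNA came from Huh7, an established human hepatocellular carcinoma line, harvested after 48 h with homochlorcyclizine dihydrochloride (HD) or after 48 h with DMSO, the solvent control. Homochlorcyclizine is an antihistamine of the piperazine type, and the labels state no dose. Each condition is 1 library (40791119 counts with HD and 38133894 with DMSO), so no difference has a replicate check. Every interval below is a 95% counting interval, which leaves out the spread between cultures. The hepatocyte and hepatoma markers of the list used to check the cell type were all present, with ALB at 5059 CPM (the count scaled to library size with TMM factors) in HD cells and 5244 CPM in DMSO cells. The leukocyte markers PTPRC and CD3E had 6 and 2 counts in the HD library, against 2 and 2 counts in the DMSO library, while LYZ of the same list was at 527 CPM with HD and 446 CPM with DMSO. Of 5 fibroblast markers 3 passed the filter, with LUM at 27.3 CPM with HD and 21.3 CPM with DMSO and COL1A1 at 8.92 CPM with HD and 8.40 CPM with DMSO, while COL1A2 had 0 counts in both libraries. The endothelial marker KDR also had 0 counts in both, and the endothelial marker PECAM1 was at 5.63 CPM with HD and 11.7 CPM with DMSO.

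The BCL2 family sets whether the mitochondrial outer membrane stays closed. Survival proteins such as MCL1 and BCL-XL hold the effectors BAX and BAK in check, BH3-only proteins bind the survival proteins or act on the effectors directly, and pores made by the effectors release cytochrome c, which starts the caspase cascade. Many BH3-only genes are controlled at transcription, among them BCL2L11 (BIM) as a target of FOXO factors. Others are held in check on the protein: BMF and BIM by dynein light chains, BAD by phosphorylation and 14-3-3 proteins, and BID until caspase 8 cleaves it. These libraries measure mRNA per gene, so neither protein nor cell death was measured, and the splice forms of BCL2L1 (BCL-XL and BCL-XS), MCL1 and BCL2L11 were not separated. In bulk RNA, more mRNA per cell and a larger share of the cells that carry it cannot be told apart.

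Of the 10 genes, 4 were at least 2-fold higher in HD cells (BMF, BBC3, PMAIP1 and BOK) and 0 were at least 2-fold lower. The same rule, which also asks that the interval exclude a ratio of 1, called 5.81% of the 12353 genes averaging 1 CPM or more as higher and 5.10% as lower. Since the genes were chosen with these values known, nothing is read from the difference between these shares. All 10 passed the filter on low counts. The median log2 ratio of HD over DMSO was 0.33 over the 10 genes, 0.78 over the BH3-only genes, 0.86 over the effectors and 0.24 over the survival genes, beside -0.01 over all genes tested. The effector value lies midway between BOK (1.89) and BAX (-0.16) and describes neither gene. Likewise the BH3-only value lies midway between BCL2L11 (0.30) and PMAIP1 (1.27), with no BH3-only gene between them.

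The stretch before a transcription start is shown for BMF and BOK, the 2 genes with the largest ratios, and for BCL2L11 as a BH3-only gene within 2-fold. Each is the 250 bases before a start annotated by RefSeq on GRCh38.p14, written 5′ to 3′ on the gene's own strand. For BMF it is the outermost of 2 annotated starts, for BCL2L11 the start of the gene, and for BOK an internal start, 7352 bases inside the gene. The windows of BBC3, whose start lies 193 bases inside the gene, and of PMAIP1 were searched for the same motifs but are not shown. In GENCODE v29, 99 and 48 of their bases are exonic. The windows shown hold fewer exonic bases, 13 for BMF, 24 for BOK and 0 for BCL2L11. Capitals mark every match on either strand to a motif that was searched, and no marked matches overlap. The FOXO motif was searched as GTAAACA and the E-box, which reads the same on both strands, as CACGTG. The GC box was GGGCGG, the pentamer of the CCAAT box gave that motif its name, and the CRE half-site was TGACG.
BMF, chr15:40108880-40109129, minus strand: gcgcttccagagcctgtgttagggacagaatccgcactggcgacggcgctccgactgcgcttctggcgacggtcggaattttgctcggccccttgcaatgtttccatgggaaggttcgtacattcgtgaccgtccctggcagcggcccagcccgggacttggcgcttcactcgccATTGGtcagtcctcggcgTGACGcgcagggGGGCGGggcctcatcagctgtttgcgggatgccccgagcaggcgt
BOK, chr2:241558495-241558744, plus strand: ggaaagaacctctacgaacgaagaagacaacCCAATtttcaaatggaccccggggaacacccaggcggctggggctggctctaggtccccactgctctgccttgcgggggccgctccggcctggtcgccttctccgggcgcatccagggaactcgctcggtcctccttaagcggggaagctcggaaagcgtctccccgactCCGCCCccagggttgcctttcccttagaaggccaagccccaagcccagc
BCL2L11, chr2:111120664-111120913, plus strand: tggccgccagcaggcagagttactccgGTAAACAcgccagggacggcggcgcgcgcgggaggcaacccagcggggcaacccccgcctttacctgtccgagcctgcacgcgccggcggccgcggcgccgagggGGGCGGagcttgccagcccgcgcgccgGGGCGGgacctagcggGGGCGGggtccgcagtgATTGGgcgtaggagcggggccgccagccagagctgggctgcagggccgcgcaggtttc

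Of these 5 genes, the FOXO motif was found only before BCL2L11, 223 bases upstream of the start, and 2.98% of all 35116 windows of the same length in the table hold it. BMF, BOK and BCL2L11 each held a CCAAT box and at least 1 GC box, PMAIP1 held 4 GC boxes and no CCAAT box, and BBC3 a CCAAT box and no GC box. Over all windows, 32.0% hold a CCAAT box and 42.6% a GC box. The E-box before BBC3, 232 bases upstream, is a match that 6.34% of windows hold. BAX and BID, both with ratios below 1, also held an E-box. The CRE half-site stood before BMF, 57 bases upstream, and before PMAIP1, 55 bases upstream, against 21.2% of windows. It also stood before BAD, BAX and BCL2L1, all within 2-fold, so 5 of the 9 members with a window held it. A member counts here if any of its windows holds the match, and the 9 members have 16 windows. The percentages are per single window, so the 2 are not like measures. Over the 9 members with a window in the table, which leaves out MCL1, 0 held the ATF4 composite motif (TGATGNAA, in 3.14% of windows). BCL2L1 was the only member with a TATA box (TATAAA, 10.7% of windows). A match describes the letters in this window, and no binding was measured.

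BMF, a BH3-only protein that neutralises survival members, had the largest difference. Its gene (chromosome 15, 40087890 to 40108879) had 8149 counts in the HD library and 1327 in the DMSO library. At 200 CPM with HD and 34.7 CPM with DMSO, BMF was 5.76-fold higher (5.44 to 6.11). That log2 ratio of 2.53 ranked 40 from the top among the 12353 genes tested. Exons of the antisense gene BMF-AS1 overlap those of BMF over 461 bases in GENCODE v29, and the strand setting of the counting is not given, so reads of the 2 cannot be told apart there. The 3 genes averaging 5 CPM or more whose log2 ratio was closest to that of BMF, a likeness over only 2 libraries, were INHBE (2.52), TCP11L2 (2.56) and LTBP1 (2.59).

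BBC3, which encodes PUMA, a BH3-only protein that binds all survival members, followed among the BH3-only genes (chromosome 19, 47220824 to 47232860). It had 588 counts in HD cells and 167 in DMSO cells, or 14.4 CPM with HD and 4.37 CPM with DMSO, a 3.31-fold higher level (2.78 to 3.95). PMAIP1, which encodes NOXA, a selective partner of MCL1 (chromosome 18, 59899996 to 59904305), had 694 counts with HD and 270 with DMSO. Its level of 17.0 CPM in HD cells, against 7.07 CPM in DMSO cells, was 2.41-fold higher (2.09 to 2.79). Both started from a low level, and their intervals are accordingly wider than that of BMF. The intervals of BMF and BBC3 do not overlap, and those of BBC3 and PMAIP1 meet between 2.78 and 2.79.

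The other 3 BH3-only genes stayed within 2-fold. BCL2L11, which encodes BIM, had 1608 counts with HD and 1225 with DMSO, a ratio of 1.23 (1.14 to 1.33). BID, whose cleaved product links death receptors to mitochondria, was the member with the lowest ratio, 0.714 (0.664 to 0.767), from 1338 counts with HD and 1760 with DMSO. BAD had 342 counts in HD cells and 346 in DMSO cells, a ratio of 0.928 whose interval (0.797 to 1.08) includes 1. BAD shares 404 exonic bases with GPR137, a protein-coding gene on the opposite strand, and BCL2L11 shares 727 with the lincRNA gene MIR4435-2HG. BH3-only genes thus stood on both sides of 1, 4 above it and 2 below it.

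The effectors differed from each other. BOK, a BAX-like protein (chromosome 2, 241551393 to 241574131), had 235 counts with HD and 59 with DMSO. At 5.77 CPM in HD cells and 1.54 CPM in DMSO cells, BOK was 3.74-fold higher, with the widest interval of the 10 genes (2.80 to 5.06). BOK-AS1 overlaps 201 of its exonic bases on the opposite strand. BAX, the abundant pore-former (chromosome 19, 48954875 to 48961798), had 3156 counts with HD and 3301 with DMSO, a ratio of 0.897 (0.854 to 0.943). BAK1, the partner effector of BAX, which was not among the 10 genes, was close to it in ratio, at 32.4 CPM with HD and 35.7 CPM with DMSO (0.908, 0.841 to 0.980).

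Neither survival member passed 2-fold. MCL1, a short-lived survival protein (chromosome 1, 150574558 to 150579610), had 13724 counts with HD and 10041 with DMSO. It was at 337 CPM in HD cells and 263 CPM in DMSO cells, a ratio of 1.28 (1.25 to 1.32). BCL2L1, which encodes BCL-XL (chromosome 20, 31664452 to 31723963), had 16910 counts with HD and 14634 with DMSO, a ratio of 1.08 (1.06 to 1.11). It shares 1424 exonic bases with the antisense gene ABALON. Both ratios were above 1 by more than counting error, and the spread between cultures was not measured.

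**Figure D1:**
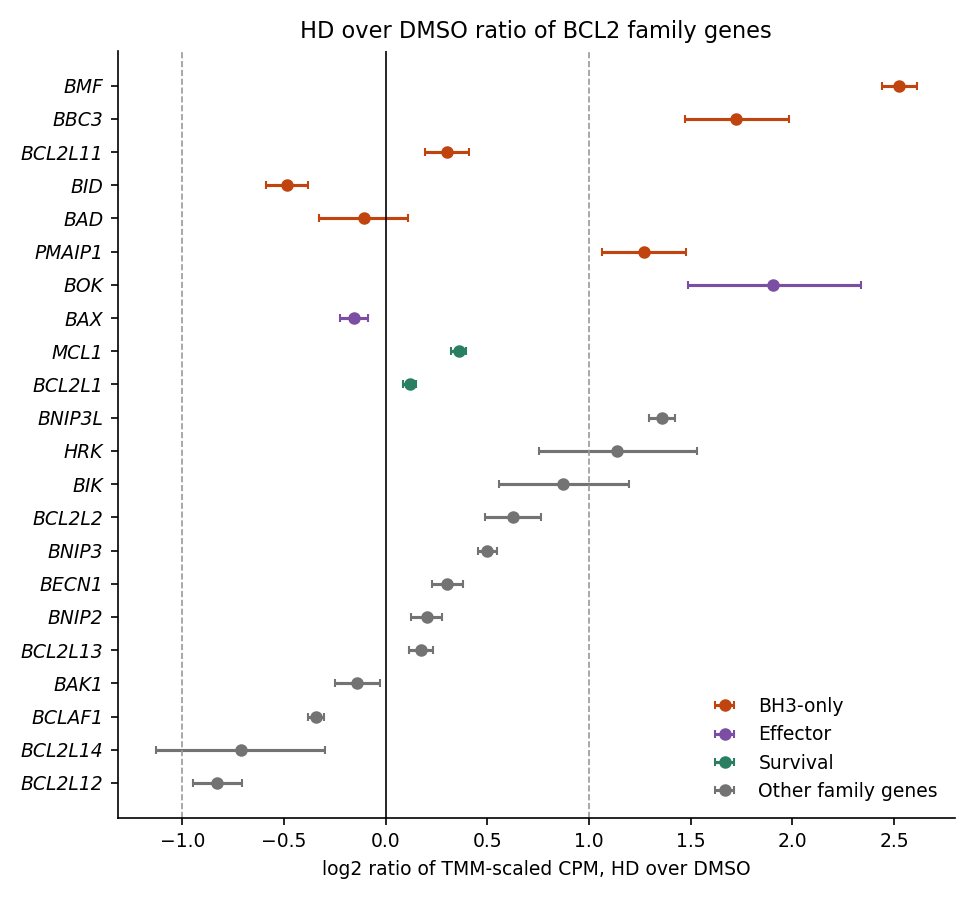
log2 ratio of TMM-scaled CPM, HD over DMSO, for the 10 genes by class and for 12 further family genes averaging 1 CPM or more (grey). Points are the ratios, bars the 95% counting intervals and dashed lines the 2-fold limits: BMF stands farthest to the right at 2.53, and BID, BAD and BAX are the members left of 0.

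**Figure D2:**
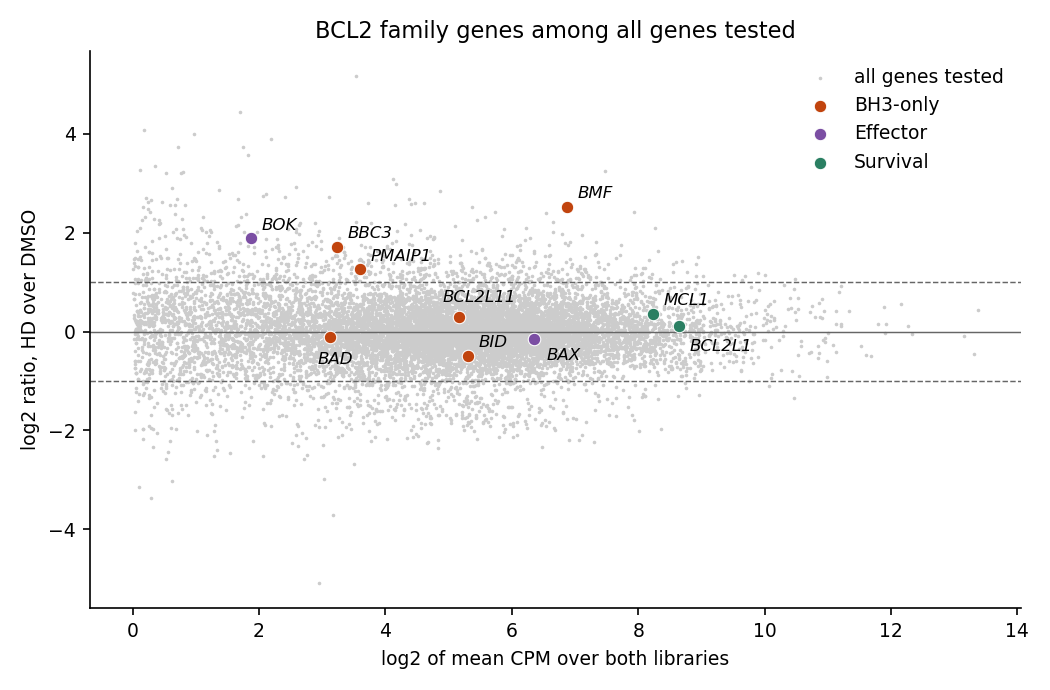
Each of the 12353 genes tested (grey) by the log2 of its mean CPM and its log2 ratio of HD over DMSO, with the 10 genes in the colour of their class. Dashed lines mark 2-fold. BMF lies at the upper edge of the grey cloud for its level, BOK, BBC3 and PMAIP1 are above the upper line at low levels, and MCL1 and BCL2L1 lie near 0 at high levels.

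Levels of different genes were compared per length, with the deposited FPKM values (counts scaled to gene length and library total). BCL2L1 was the most abundant of the 10 genes in both libraries, at 169 FPKM with HD and 156 FPKM with DMSO. In HD cells it was followed by MCL1 (90.6 FPKM), BAX (82.8), BMF (42.4), BID (15.3), BCL2L11 (10.9), BBC3 (9.0), BAD (7.78), PMAIP1 (7.26) and BOK (2.34). In DMSO cells the order after BCL2L1 was BAX (92.7 FPKM), MCL1 (70.9), BID (21.5), BCL2L11 (8.87), BAD (8.42), BMF (7.38), PMAIP1 (3.02), BBC3 (2.74) and BOK (0.629). BMF therefore stood in place 4 with HD and in place 7 with DMSO. MCL1 and BAX, in places 2 and 3, stood in opposite order in the 2 libraries. Counting intervals of neighbours overlapped between BBC3 and BAD and between BAD and PMAIP1 with HD, and between BCL2L11 and BAD, BAD and BMF, and PMAIP1 and BBC3 with DMSO. Among all genes tested, the FPKM of BMF was at percentile 85.7 with HD and 42.7 with DMSO, while BCL2L1 was at 97.1 with HD and 96.4 with DMSO.

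**Figure D3:**
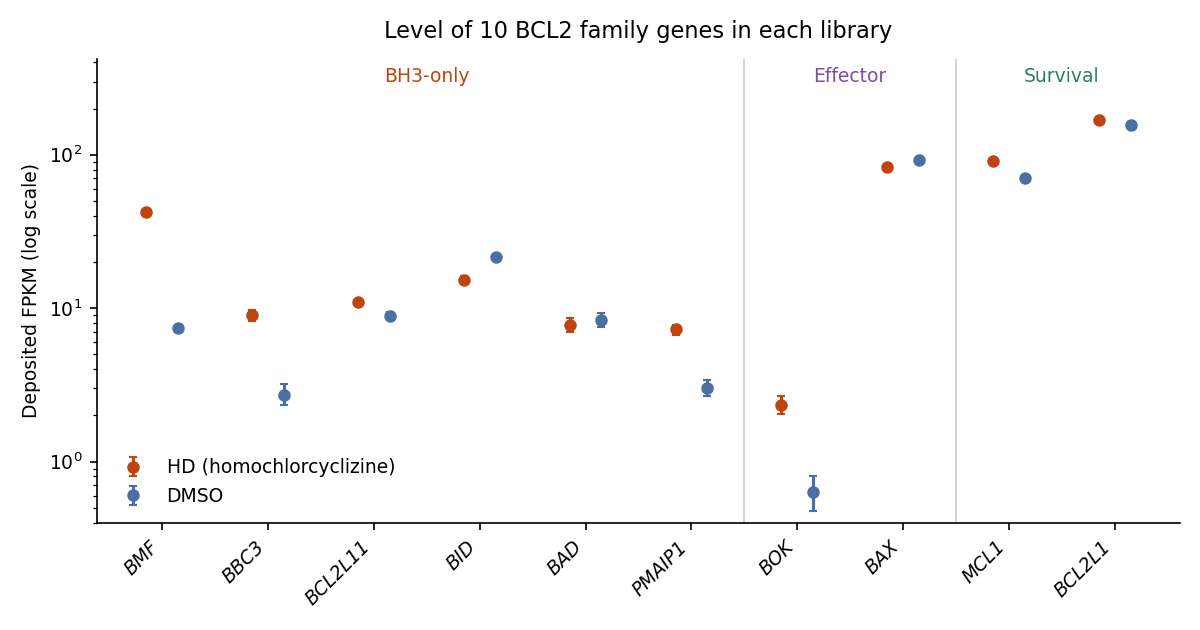
Deposited FPKM of the 10 genes on a log axis, with the HD library left of the DMSO library for each gene; bars are 95% counting intervals. BMF is at 42.4 FPKM with HD and 7.38 FPKM with DMSO, and BOK is the lowest gene in both libraries.

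Summed by class, the BH3-only genes reached 92.6 FPKM in HD cells and 51.9 FPKM in DMSO cells, 1.78-fold more (1.72 to 1.85). The survival genes summed to 259 FPKM with HD and 227 FPKM with DMSO, a ratio of 1.14 (1.12 to 1.16). The effector sum, 85.2 FPKM with HD and 93.3 FPKM with DMSO, had a ratio of 0.913 (0.870 to 0.958) and was almost all BAX, which made up 97.3% of it with HD and 99.3% with DMSO. BMF alone made up 45.8% of the BH3-only sum in HD cells and 14.2% in DMSO cells, where BID was the largest part at 41.4%. For each 100 FPKM of survival mRNA there were 35.7 FPKM of BH3-only mRNA with HD and 22.9 FPKM with DMSO, a 1.56-fold difference (1.5 to 1.62). Without BMF the same quantity was 19.4 FPKM with HD and 19.6 FPKM with DMSO, a ratio of 0.987 (0.939 to 1.04). Taking BH3-only and effector genes as one sum gave 68.5 FPKM per 100 FPKM of survival mRNA with HD and 64.0 with DMSO, a ratio of 1.07 (1.03 to 1.11). The 5 remaining BH3-only genes, higher and lower ones together, stood in a proportion to the survival genes that differed by less than counting error. These sums weigh mRNA only, and proteins differ in how strongly they bind and how long they last.

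**Figure D4:**
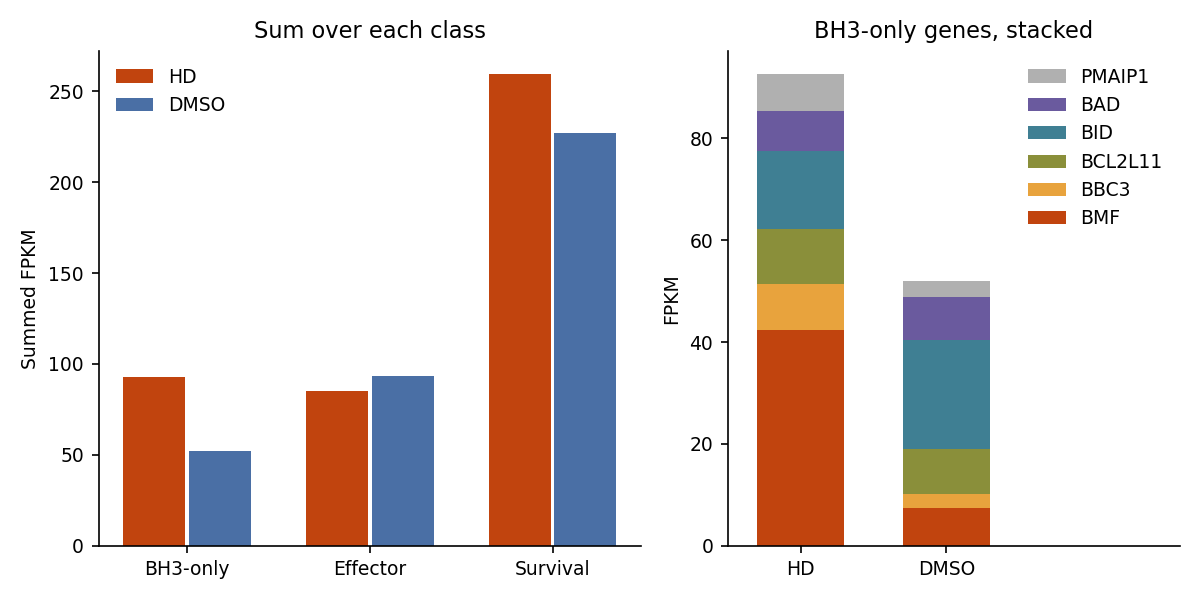
Left, FPKM summed over the genes of each class, with HD left of DMSO. Right, the BH3-only sum split by gene: BMF makes up 42.4 of 92.6 FPKM with HD and 7.38 of 51.9 FPKM with DMSO.

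A ratio of 2 genes within a library does not depend on how the libraries are scaled. Relative to BCL2L1, BMF counts were 5.31-fold higher with HD than with DMSO (4.99 to 5.66), BOK 3.45-fold (2.58 to 4.67), BBC3 3.05-fold (2.56 to 3.65) and PMAIP1 2.22-fold (1.93 to 2.57). Relative to MCL1 these were 4.49-fold for BMF (4.22 to 4.79), 2.91-fold for BOK (2.18 to 3.95), 2.58-fold for BBC3 (2.16 to 3.08) and 1.88-fold for PMAIP1 (1.63 to 2.18). The ratio of PMAIP1 was above 2 against BCL2L1 and below 2 against MCL1, its preferred binding partner. Both of these intervals of PMAIP1 include 2. The count of BCL2L11 relative to MCL1 was the same within counting error, with a ratio of 0.960 (0.887 to 1.04). BID and BAX were lower relative to both survival genes, BID at 0.658 against BCL2L1 (0.610 to 0.709) and 0.556 against MCL1 (0.515 to 0.60), BAX at 0.827 against BCL2L1 (0.784 to 0.873) and 0.70 against MCL1 (0.662 to 0.739). The FPKM of BMF was 0.468 of that of MCL1 in HD cells and 0.104 of it in DMSO cells.

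**Figure D5:**
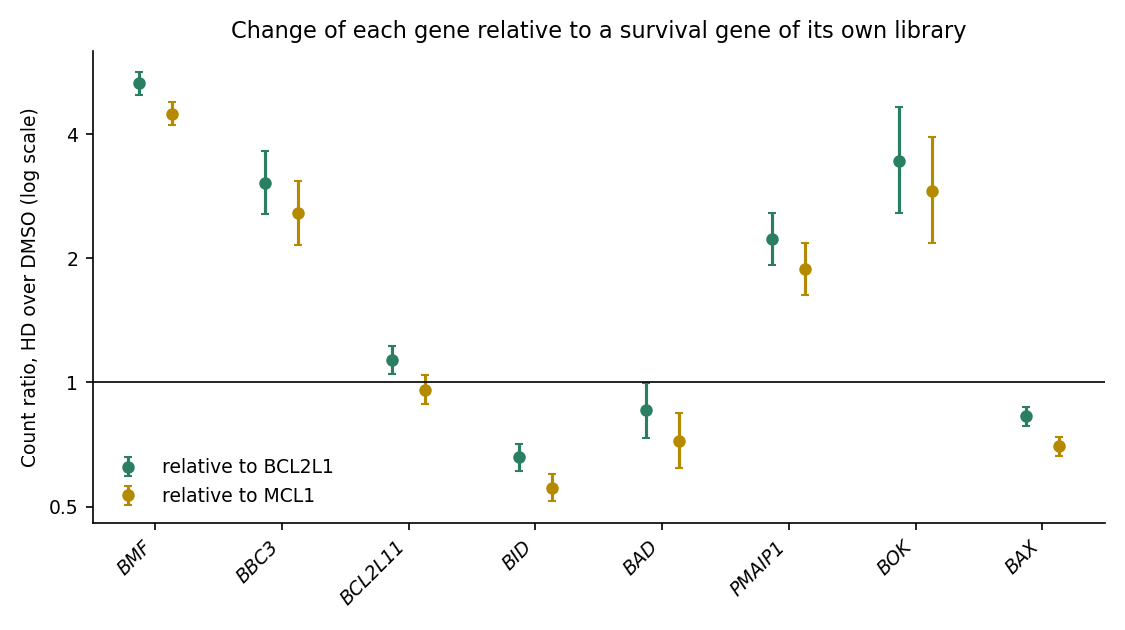
Change, HD over DMSO, of the count of each BH3-only and effector gene relative to BCL2L1 (green) or MCL1 (yellow) of its own library, on a log axis with 95% counting intervals. BMF, BBC3, PMAIP1 and BOK lie above 1 and BID and BAX below 1 against both survival genes.

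Of 16 further genes of the BCL2 family or named for binding to it, 12 passed the filter, of which 2 were past 2-fold upwards and 0 downwards, and their median log2 ratio was 0.25. Over all genes tested, 5.81% were called higher and 5.10% lower, with a median log2 ratio of -0.01. This list and those below were chosen with earlier results of these data known, so nothing is read from the differences. BNIP3L, a mitophagy receptor with a BH3-like stretch, was at 178 CPM with HD and 69.4 CPM with DMSO, 2.56-fold higher (2.45 to 2.68). HRK, a BH3-only gene best known from neurons, had 190 counts with HD and 81 with DMSO, 2.20-fold higher (1.69 to 2.89). BIK, another BH3-only gene, had a ratio of 1.83 (1.47 to 2.29) and BCL2L12 one of 0.563 (0.518 to 0.613). The survival gene BCL2L2 (BCL-W) had a ratio of 1.54 (1.40 to 1.70). BCL2 itself had 2 counts in the HD library and 8 in the DMSO library, too few to give a direction (ratio 0.235, 0.0243 to 1.18).

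Downstream of the family, all 21 listed genes of caspases and mitochondrial apoptosis (channels and nucleases included) were measured, of which 0 were past 2-fold upwards and 1 downwards. Over all genes tested, the shares were 5.81% upwards and 5.10% downwards and the median log2 ratio -0.01. The median log2 ratio of the 21 genes was -0.15, with 4 ratios above 1 and 17 below it. The lower one was BIRC5 (survivin, also a mitotic gene), at 31.3 CPM with HD and 121 CPM with DMSO. VDAC3, a mitochondrial outer membrane channel, had a ratio of 0.520 (0.503 to 0.536), DFFB one of 0.691 and ENDOG one of 0.695, both nucleases of apoptotic DNA breakdown. Of 10 death receptor genes 0 passed 2-fold in either direction. The TRAIL receptors TNFRSF10A, at 1.95-fold (1.73 to 2.20), and TNFRSF10B, at 1.84-fold (1.77 to 1.91), were highest, and TRADD and RIPK1 had ratios of 1.5 and 1.21. The median log2 ratio of the death receptor list was 0.16, with 9 ratios above 1 and 1 below it.

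Among 20 measured genes for binding partners and stability regulators of the members, 1 was at least 2-fold higher, the pseudokinase TRIB3 (2.66-fold, 2.59 to 2.73), and 0 were past 2-fold downwards. The list's median log2 ratio was -0.05, with 9 ratios above 1 and 11 below it. Shares over all genes tested were 5.81% upwards and 5.10% downwards. The dynein light chains that hold BMF and BIM at the cytoskeleton had ratios below 1: DYNLL1 was at 151 CPM with HD and 208 CPM with DMSO (0.727, 0.703 to 0.752) and DYNLL2 at 182 CPM with HD and 217 CPM with DMSO (0.838, 0.812 to 0.864). The 14-3-3 gene YWHAQ had a ratio of 0.662, and the BAD kinases PIM1 and PIM3 ratios of 1.58 and 1.61.

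Of 14 transcription factors known to act on these promoters or in the same stress responses, 4 were past 2-fold upwards and 2 downwards, with a median log2 ratio of 0.64. Over all genes tested, the shares were 5.81% upwards and 5.10% downwards and the median -0.01. This list too was chosen with earlier results of these data known. The 4 higher ones were FOXO4 (2.82-fold, 2.37 to 3.35), FOXO3 (2.13-fold, 2.00 to 2.28), FOXO1 (2.02-fold, 1.78 to 2.29) and the CHOP gene DDIT3 (2.20-fold, 1.97 to 2.46). ATF4 was 1.66-fold higher (1.63 to 1.68), while the lower ones were E2F1 (ratio 0.475, 0.445 to 0.507) and TP73, named after its values were seen (0.487, 0.412 to 0.573). Whether any of these factors bears on BMF, BBC3, PMAIP1 or BOK was not tested.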

How the data were processed

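Poly(A)-selected mRNA of 1 HD and 1 DMSO culture was measured. The authors deposited raw counts per gene symbol and FPKM per library. Per the submitters' processing notes the build was hg38, while aligner, counting program and strand setting are not stated in the labels. The deposited FPKM ratios and the ratios of counts per library total were equal to within 3.13e-05% in 14778 genes, so FPKM is no second measurement. Counts were scaled with TMM factors (edgeR 4.0.16, R 4.3.3) and analysed with scipy 1.17.1, pandas 2.3.3 and numpy 2.4.6 (Python 3.11.15). DESeq2 1.42.0 gave alternative size factors. Log2 ratios used a prior count of 1, and fold ratios none. Among genes averaging 1 CPM or more, a difference of 2-fold or more whose exact 95% Clopper-Pearson counting interval excluded 1 was called higher or lower. Intervals of FPKM sums used the delta method, and those of within-library ratios the exact conditional method. Reads carry no molecular identifiers, so intervals cover counting error only. With 1 library a group no test between conditions exists. This rule and its intervals were tried on simulated Poisson counts. Those hold counting error only, so they say nothing of the spread between cultures. Members and gene lists were chosen with earlier results of these data known. From each list, the up to 4 genes with the largest absolute log2 ratio are named, plus FOXO1, FOXO3, ATF4, DDIT3, BAK1, BCL2, BCL2L2, DYNLL1 and DYNLL2. Some genes and 1 list that the rule takes are not reported here. Gene positions and promoters are those of RefSeq (GRCh38.p14, the assembly of hg38), and exon overlaps and strands those of GENCODE v29. Alternatives were other scalings, filters, prior counts, a 1.5-fold rule, the FPKM ratio, CPM sums and classes without their most abundant gene.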

Additional observations from a re-analysis of the deposited data

How the results depend on the processing

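No paired analysis was possible because each group holds 1 library, and leaving out a replicate was not possible for the same reason. There were 9 alternatives to the scaling, filter, prior count, size rule and scale. Under the other scalings and prior counts, the log2 ratios of the members kept their direction and stayed inside their counting intervals. The FPKM ratio did so too, but it repeats scaling by library totals. The filters and the 1.5-fold rule cannot change a log2 ratio, only which genes pass or are called. The members counted were 4 higher and 0 lower throughout, except with a filter of 5 CPM, where BOK was left out and 3 were higher. Over all genes, no filter gave 1197 higher and 946 lower, and the 1.5-fold rule 1736 higher and 1736 lower, against 718 and 630. The class sums depended on the scale and on single genes. Upper-quartile scaling moved the survival ratio to 1.17. Sums of TMM-scaled CPM in place of FPKM gave 2.34 for BH3-only, 1.17 for survival and 2.01 for BH3-only over survival. Without the most abundant gene of each class, the HD over DMSO ratio was 1.13 for BH3-only genes (without BMF), 3.72 for effectors (BOK alone), 1.28 for survival genes (MCL1 alone) and 0.882 for BH3-only over survival, on the other side of 1. TMM scaling of the FPKM sums, chosen after seeing the data, moved each class ratio by less than its interval. Depth limits BOK and BBC3 most, with 59 and 167 counts in DMSO cells.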

Other observations

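Some family genes lay under the filter on low counts and were given no direction. BCL2L15 had 17 counts with HD and 5 with DMSO, BCL2A1 had 4 counts with HD and 0 with DMSO, and BCL2L10 had 0 counts with HD and 2 with DMSO. Where a gene had 0 counts, a level of up to 3 counts is allowed, or 0.0737 CPM with HD and 0.0785 CPM with DMSO.

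The further genes named here, next to the mitochondrial step, stayed within 2-fold of their DMSO level, and were chosen after their values were seen. APAF1, the scaffold of the apoptosome, had a ratio of 0.905 (0.842 to 0.972) and CASP9 one of 0.817 (0.731 to 0.912). CYCS, which encodes cytochrome c, had a ratio of 0.851 (0.832 to 0.869). XIAP, a direct caspase inhibitor, was at 76.0 CPM with HD and 61.9 CPM with DMSO, a ratio of 1.23 (1.16 to 1.30). CASP8, the protease that cleaves BID, had a ratio of 0.997 (0.930 to 1.07), and its regulator CFLAR one of 1.05 (0.992 to 1.10).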
